A study of Mus musculus with 6 samples.

Results

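The antiviral interferon effectors described here are 8 genes, Ifit1, Ifit2, Ifit3, Ifitm2, Ifitm3, Bst2, Isg15 and Rsad2. They were chosen by name, as the rows of the deposited table that carry these gene symbols, and make up 8 of its 10989 genes. All 8 were higher in sorted brain endothelial cells than in the whole brain cell suspension, by 2.83-fold (Bst2) to 5.46-fold (Ifit1).

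Interferons are secreted proteins that warn cells of viral infection. Type I interferon binds the receptor made of Ifnar1 and Ifnar2, whose kinases activate STAT proteins. With Irf9 these form a complex that binds the interferon-stimulated response element (ISRE) in the promoters of its target genes. Proteins of the target genes then block separate steps of a viral life cycle, namely entry, translation, genome replication and release. Many cells keep a low level of these transcripts without infection. The endothelium is the layer of the brain that faces the blood.

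RNA sequencing was done on 6 libraries from the brain of mice of genotype Tie2-cre+; NuTRAP+, a genotype shared by both groups; the titles of all libraries also carry the label WT. Tie2-cre drives Cre recombinase from an endothelial promoter, and NuTRAP is a reporter that gives EGFP in cells where Cre has acted. The 3 Input libraries stand for the brain cell suspension and the 3 Positive libraries for the sorted fraction, which was EGFP positive, CD31 positive and CD11b negative. Each group holds the replicate numbers 1222, 1223 and 1227, which the series text calls biological replicates. No source used here gives age, sex or treatment. The labels' protocol also gates EGFP positive, CD11b positive cells as putative microglia, so the reporter is not limited to endothelium.

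Library totals ran from 4772866 to 52283556 estimated counts, an 11-fold range, with both 1223 libraries the shallowest. The members had 53 to 10662 estimated counts per library. All 12 endothelial markers were higher in Positive, with a summed level of 3789 to 5098 CPM in Input (CPM being counts scaled to a common library size) and 27331 to 29789 CPM in Positive. All 12 microglial markers were lower there, at 6849 to 12570 CPM in Input and 1553 to 3217 CPM in Positive, and the astrocyte and oligodendrocyte lists were lower too (8 of 8 genes each). The endothelial list includes the genes of CD31 and Tie2, and the microglial list that of CD11b. The sort used CD31, CD11b and the EGFP that depends on Tie2-cre. The direction of these genes is thus not independent of the sort. Markers of pericytes, the mural cells of capillaries, rose in 8 of 9 genes, from 705.9 to 828.2 CPM in Input to 1294 to 2089 CPM in Positive. No marker gene in the table was at 0 in any library. The depositors required at least 50 counts in every library of either fraction. Of the pericyte genes called higher, 1 passed that minimum in Positive only. Of the astrocyte and oligodendrocyte genes, 1 each passed it in Input only. The directions of these genes were thus partly set by that filter.

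The promoters are shown first, because the ISRE is the sequence through which these genes are known to answer interferon. RefSeq promoters on GRCm38.p6, running from 250 bases before to 50 bases after each transcript start, were found for all 8 members (9 promoters, since Ifit2 has 2). The core of the ISRE, written here as GAAA, any 2 bases and again GAAA, was searched on both strands. The windows below hold the matches that lie before the start, in capitals, with 25 bases on each side, written 5′ to 3′ on the strand of the gene. A match on the opposite strand reads as TTTC, any 2 bases and again TTTC.
Ifit1, chr19:34640760-34640838, + strand: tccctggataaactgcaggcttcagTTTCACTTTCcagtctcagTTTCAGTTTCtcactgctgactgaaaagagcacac
Ifit3, chr19:34583348-34583441, + strand: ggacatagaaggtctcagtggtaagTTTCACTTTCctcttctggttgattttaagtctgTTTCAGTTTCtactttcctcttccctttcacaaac
Ifitm2, chr7:140955973-140956032, - strand: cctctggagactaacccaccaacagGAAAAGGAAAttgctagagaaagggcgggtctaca
Bst2, chr8:71537562-71537627, - strand: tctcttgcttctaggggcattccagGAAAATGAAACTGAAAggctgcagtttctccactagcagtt
Isg15, chr4:156200850-156200921, - strand: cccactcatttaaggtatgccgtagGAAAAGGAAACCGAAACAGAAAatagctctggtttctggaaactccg
Rsad2, chr12:26456538-26456597, - strand: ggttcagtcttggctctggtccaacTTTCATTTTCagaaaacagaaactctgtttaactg

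Matches began 104 bases before the start in Ifit1, 156 in Ifit3, 46 in Ifitm2, 130 in Bst2, 78 in Isg15 and 120 in Rsad2. Ifit1 and Ifit3 each held 2 separate matches, while the 2 matches of Bst2 and the 3 of Isg15 overlapped one another. Ifitm3 held 2 matches just after its start, and the promoters of Ifit2 held none. In all, 7 of 8 members had these letters, against 3.63% of the 8784 genes of the table with a promoter and 3.44% of all 32851 promoters. The interferon-gamma activated site (GAS), written as TTC, any 3 bases and GAA, which reads the same on both strands, occurred in 3 of 8 members (Ifit2, Ifitm3 and Bst2), against 7.96% of table genes. The GAS match overlapped an ISRE match in Ifitm3 and Bst2. A match describes letters only and shows no binding.

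**Figure D1:**
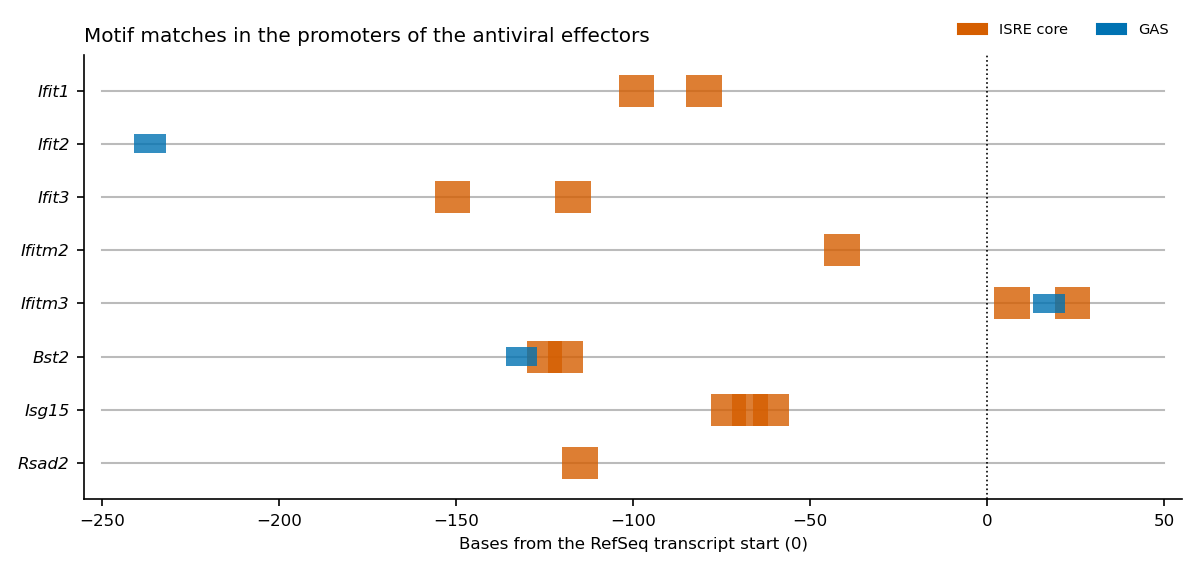
Positions of ISRE core and GAS letters (boxes) in the promoters of the 8 members; the x axis gives bases from the RefSeq transcript start at 0. ISRE letters lie before the start in 6 genes, after it in Ifitm3, and in no promoter of Ifit2.

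Ifit1, Ifit2 and Ifit3 bind RNA or one another and hold back the translation of viral RNA. They lie together on chromosome 19 (mm10), Ifit2 at 34550694-34576534, Ifit3 at 34583529-34588982 and Ifit1 at 34640889-34650009, all on the + strand. Ifit1 stood at 20.7, 10.6 and 14.2 CPM in Input 1222, 1223 and 1227 and at 104.5, 85.6 and 64.0 CPM in Positive. It was lowest in Input 1223 and highest in Positive 1222, and the groups did not overlap. The log2 fold change was 2.45 ± 0.27 (SE, edgeR adjusted p = 9.79e-05), the largest among the members, with means of 15.2 ± 5.11 and 84.7 ± 20.3 CPM (SD, n = 3). Ifit2 stood at 31.9, 31.0 and 27.3 CPM in Input and at 109.7, 82.5 and 75.2 CPM in Positive, again without overlap, a log2 fold change of 1.57 ± 0.18 (edgeR adjusted p = 9.84e-05). Ifit3 was nearly level across Input, at 40.1, 39.8 and 38.3 CPM, and spread out in Positive, at 177.6, 137.2 and 113.4 CPM. Its log2 fold change was 1.86 ± 0.18 (edgeR adjusted p = 4.10e-05). All 3 genes had the same order of Positive libraries, with 1222 highest and 1227 lowest.

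I830012O16Rik, which RefSeq names Ifit3b, is the one further Ifit or Ifitm relative of the 8 listed that was in the table. It stood at 14.8, 7.59 and 14.7 CPM in Input and at 48.8, 29.5 and 30.4 CPM in Positive (log2 fold change 1.52 ± 0.30, edgeR adjusted p = 0.00276). It passed the depositors' minimum of 50 counts in Positive only, so its direction was partly set by that filter. Reads of Ifit and Ifitm relatives can be shared between near-identical copies; the authors' way of assigning them is not stated in any source used here. The split between Ifit3 and I830012O16Rik and between Ifitm2 and Ifitm3 is therefore uncertain.

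Ifitm2 and Ifitm3 are small membrane proteins that hinder the fusion of virus with the cell membrane. They lie on the - strand of chromosome 7, at 140954839-140955961 and 141009590-141010744. Ifitm3 was the most abundant member, at 97.1, 121.5 and 94.7 CPM in Input and 482.2, 471.8 and 428.0 CPM in Positive. The Positive libraries lay close together and every one was at least 3.52 times the highest Input library. The log2 fold change was 2.15 ± 0.14 (edgeR adjusted p = 6.72e-06). Ifitm2 stood at 28.9, 52.1 and 39.7 CPM in Input and 131.0, 153.2 and 157.1 CPM in Positive (log2 fold change 1.89 ± 0.22, edgeR adjusted p = 1.08e-04). It was the one member whose lowest values, in both fractions, were those of number 1222.

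Bst2, also called tetherin, holds budding virus particles on the cell surface. The gene is at 71534262-71537437 on the - strand of chromosome 8. It stood at 24.3, 25 and 22.0 CPM in Input and at 81.7, 61.0 and 58.1 CPM in Positive. Positive 1222 stood above the other two, and every Positive library was above every Input library. Bst2 had the smallest difference of the members, a log2 fold change of 1.5 ± 0.17 (edgeR adjusted p = 1.16e-04).

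Isg15 is a ubiquitin-like protein that is joined to other proteins after interferon. The gene is at 156199424-156200818 on the - strand of chromosome 4. It stood at 14.9, 18.8 and 11.3 CPM in Input and at 62.8, 50.3 and 51.4 CPM in Positive. The groups did not overlap, and the log2 fold change was 1.90 ± 0.22 (edgeR adjusted p = 1.02e-04). Of 5 genes that attach or remove Isg15, 3 rose, where 26.1% of all genes did. They were the activating enzyme Uba7 (1.42 on the log2 scale), the ligase Trim25 (1.91) and the protease Usp18 (2.21). The conjugating enzyme Ube2l6 was not called (log2 fold change -0.21, edgeR adjusted p = 0.22). The ligase Herc6 missed the threshold at 0.77 (edgeR adjusted p = 0.052) and passed it with the replicate number as a block (0.78, edgeR adjusted p = 0.020), with DESeq2, limma or upper-quartile scaling, without Input 1222 (1.02) and without Positive 1227 (0.91).

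Rsad2, also called viperin, makes a nucleotide that ends viral RNA chains. The gene is at 26442743-26456452 on the - strand of chromosome 12. It stood at 34.0, 32.8 and 30.0 CPM in Input and at 150.6, 127.9 and 138.1 CPM in Positive. Both groups were tight, and the gap between them was the widest of the members, with the lowest Positive library at 3.77 times the highest Input library. The log2 fold change was 2.11 ± 0.13 (edgeR adjusted p = 5.13e-06). Cmpk2, a nucleotide kinase 12762 bases away, stood at 27.3 ± 1.78 CPM in Input (SD, n = 3) and rose to 116.2 ± 27.2 CPM in Positive (2.08 ± 0.19 on the log2 scale, edgeR adjusted p = 3.33e-05).

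**Figure D2:**
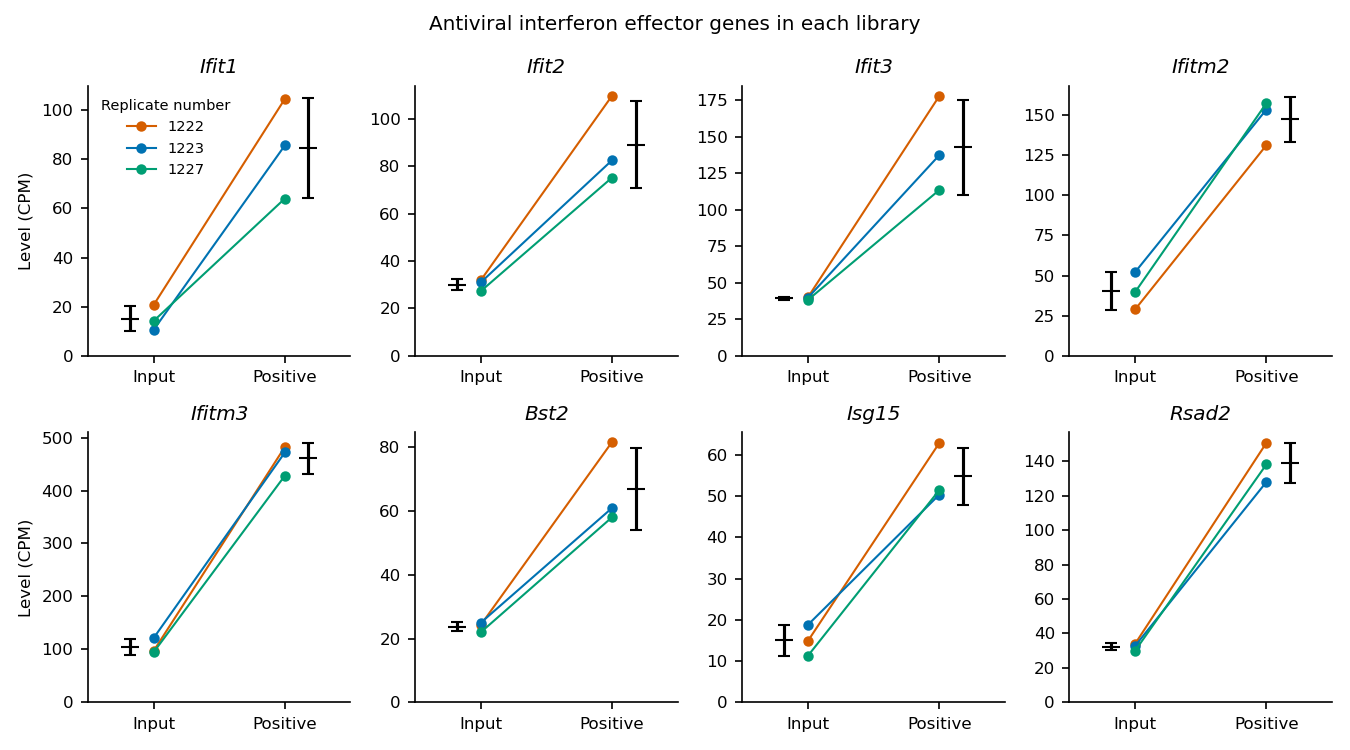
Level of each member (y axis, CPM, from 0, with its own scale per panel) in Input and Positive; points are libraries, coloured by replicate number and joined within a number, and bars give mean and SD (n = 3). In all 8 panels every Positive point lies above every Input point, and Positive 1222 is highest in 7.

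All 8 members were called higher, where 26.1% of all genes tested were. All 8 had every Positive library above every Input library, where 31.8% of all genes did. Their median log2 fold change was 1.90, against 0.029 over all genes, and their ranks from the top ran from 267 (Ifit1) to 828 (Bst2) of 10989. In bulk libraries, fewer cells of a type and less RNA per cell cannot be told apart. As a share of the summed endothelial markers, the summed members were 7.7%, 6.5% and 7.18% in Input and 4.76%, 3.93% and 3.81% in Positive. The median log2 fold change of the endothelial markers was 2.85 and their lowest 2.36, so that among the members only Ifit1 (2.45) reached their range.

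Set per kilobase of exon, so that genes can be compared, Ifitm3 led in both fractions, at 154.0 ± 21.9 CPM per kb in Input and 679.4 ± 42.4 in Positive (SD, n = 3). Ifitm2 followed at 61.5 ± 17.7 and 224.6 ± 21.5, apart from its neighbours in the order in both fractions. In Positive, Ifit3 (81.8 ± 18.6), Bst2 (74.1 ± 14.3) and Isg15 (72.5 ± 9.16) overlapped. Below them Rsad2 (32.0 ± 2.62), Ifit1 (31.9 ± 7.63) and Ifit2 (22.7 ± 4.63) overlapped each with the next. In Input, Bst2 (26.3 ± 1.72) stood above Ifit3 (22.6 ± 0.54), which overlapped Isg15 (19.8 ± 4.96). Ifit2 (7.66 ± 0.61), Rsad2 (7.44 ± 0.47) and Ifit1 (5.71 ± 1.92) overlapped at the bottom. By mean, Ifit1 was thus last in Input and level with Rsad2 in Positive. The ratio of Ifit1 to Rsad2 overlapped between the fractions, however, at 0.608, 0.323 and 0.473 in Input and 0.694, 0.669 and 0.464 in Positive.

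The proportions among the members were compared through their ratios in each library. Of 28 ratios between members, 11 did not overlap between the fractions and 17 did, where 67.9% of the ratios over all pairs of genes of the table (those above 0 in every library) did not overlap. Within replicate numbers, 19 of the 28 moved one way in all 3, among them 8 of the 17 that overlapped. The other 11 did not overlap and so had to move one way. The share moving one way over all pairs of genes was not counted. With 3 libraries against 3, the smallest p of a two-sided exact permutation test is 0.1, so no ratio could pass 0.05. The Ifit1 to Ifit2 ratio was 0.648, 0.342 and 0.52 in Input and 0.953, 1.04 and 0.851 in Positive. The Ifitm3 to Bst2 ratio was 4, 4.86 and 4.30 in Input and 5.90, 7.74 and 7.36 in Positive. The Ifit2 to Bst2 ratio was 1.31, 1.24 and 1.24 in Input and 1.34, 1.35 and 1.29 in Positive, which overlapped, although it was higher in Positive in each replicate number.

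Positive 1222 was the highest library for 7 of 8 members, against 33.8% of all genes. Markers of perivascular macrophages, which sit along brain vessels, were also highest there, in 8 of 8 genes. Their sum was 628.2, 601.1 and 564.0 CPM in Input and 3446, 1370 and 659.7 CPM in Positive. Of the 8, 7 were called higher, where 26.1% of all genes were. Of these 7, 1 passed the depositors' minimum count in Positive only, so its direction was partly set by that filter. Of the 8, 2 had every Positive library above every Input library, where 31.8% of all genes did. Mrc1, a defining gene of these macrophages, stood at 145.2, 161.8 and 117.4 CPM in Input. In Positive it stood at 1161.9, 417.7 and 160.3 CPM, so the groups overlapped. Within a replicate number the macrophage sum was thus 5.49, 2.28 and 1.17 times its Input value. The members' median within-number difference in log2(CPM + 1) was 2.12, 1.65 and 2.02 in 1222, 1223 and 1227. Without Positive 1222 all 8 stayed above the threshold, with log2 fold changes from 1.33 (Bst2) and 1.39 (Ifit2) to 2.11 (Ifitm3) and 2.26 (Ifit1). Microglial markers, although lower in Positive than in Input, also had Positive 1222 as their highest Positive library in 9 of 12 genes. Their sums were 3217, 1786 and 1553 CPM in Positive 1222, 1223 and 1227. The part of macrophages and microglia in the members' rise over Input, and in the spread among Positive libraries, was not tested.

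**Figure D3:**
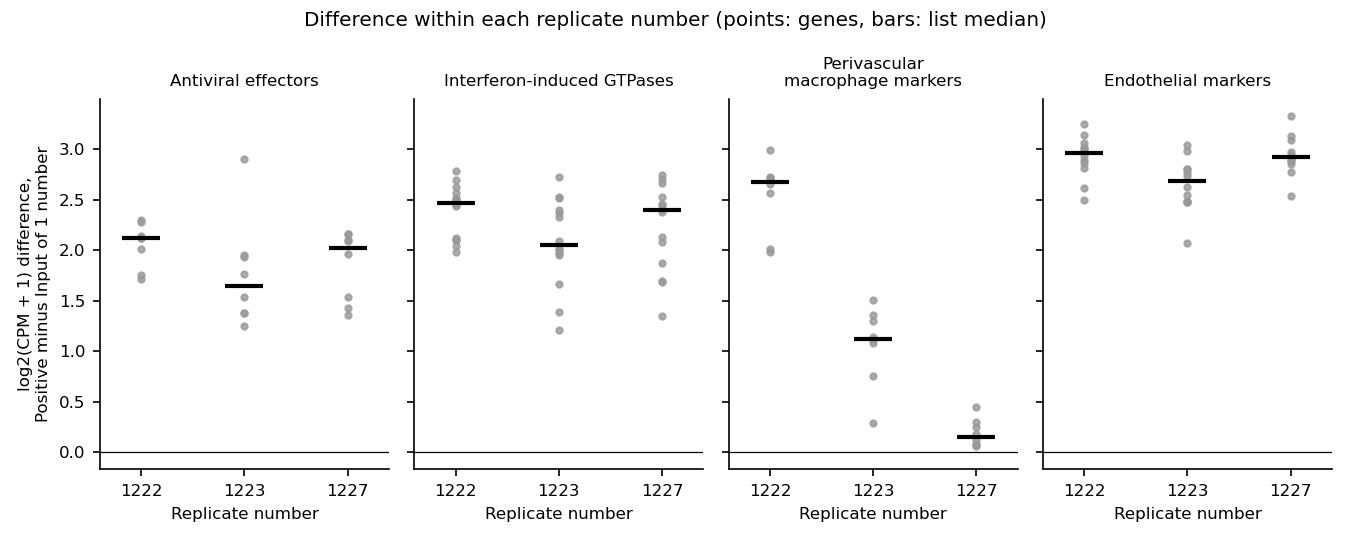
Difference in log2(CPM + 1) between Positive and Input of 1 replicate number (y axis) for the genes of 4 lists; points are genes and bars list medians. The medians of the 8 antiviral effectors are 2.12, 1.65 and 2.02, while those of the perivascular macrophage markers are 2.67, 1.12 and 0.15.

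Of the wider pathway, none of the 10 interferon ligand genes listed was analysed here. Among 5 receptor genes, 3 rose and 1 fell, where 26.1% and 29.4% of all genes did. Those higher were Ifnar1 (log2 fold change 1.82) and Ifnar2 (1.4), the chains of the type I receptor. The third was Il10rb (1.85), a chain of the type III receptor. The interferon-gamma receptor chains did otherwise. Ifngr1 fell by 0.61 (edgeR adjusted p = 0.019). The call was lost when 1 library was left out, with values of -0.51 without Input 1222, -0.55 without Input 1227, -0.52 without Positive 1223 and -0.59 without Positive 1227. Ifngr2 was not called (-0.11, edgeR adjusted p = 0.71).

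Of 13 JAK, STAT and IRF genes, which carry the signal to the nucleus, 9 rose and 2 fell (median 0.89). Over all genes, 26.1% rose and 29.4% fell. Stat3 rose by 0.80, and Irf7, the factor that amplifies type I interferon, rose most, by 2.39 ± 0.32 (edgeR adjusted p = 2.82e-04). Irf5 fell by 0.84 and Irf8, a factor of the myeloid lineage, fell by 2.25 ± 0.37 (edgeR adjusted p = 9.98e-04). The microglial markers fell with them, and their part in this was not tested. Jak1 (0.14) and Irf3 (0.18) were not called.

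Of 12 sensors of foreign nucleic acid and their adaptors, 6 were higher and 4 lower (median 0.20), against 26.1% and 29.4% of all genes. The share lower was thus near that of all genes. The RNA sensor Ifih1 rose by 1.82 and Trim25, which also acts on RNA sensing, by 1.91. The endosomal receptors fell, Tlr3 by 0.78, Tlr7 by 1.45 and Tlr9 by 1.71, and the DNA-sensing adaptor Tmem173 (STING) by 1.85. Tlr9 passed the depositors' minimum of 50 counts in Input only, and Dhx58, another of the genes counted higher, in Positive only, so their directions were partly set by that filter. The Tlr7 call was lost without Input 1222 (-1.25) and without Positive 1223 (-1.43). The adaptors Mavs (-0.26) and Ticam1 (-0.04) were not called.

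Among 11 genes of feedback and nucleic acid control, 4 rose and 2 fell (median 0.25), where 26.1% and 29.4% of all genes did. Those higher were Usp18, which also damps the receptor, Samhd1 (1.45), which degrades nucleotides, Adar (1.05), which edits double-stranded RNA, and Rnaseh2c (0.85). The Rnaseh2c call was lost without Input 1222 (0.71), Input 1227 (0.84) or Positive 1223 (0.60). Socs3 fell by 1.44 and Ptpn6 by 1.79, the second losing its call without Positive 1223 (-1.62). Not called were Pias1 (0.093), Ptpn2 (0.22), Trex1 (0.25), Rnaseh2a (0.34) and Rnaseh2b (-0.48). Over receptors, signalling, sensing, conjugation and feedback together, 23 of 44 genes rose and 9 fell, against 26.1% and 29.4% of all genes.

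Other interferon-stimulated effectors, which act beside the members, were mostly higher. Of 31 in the table, 27 rose, where 26.1% of all genes did, and the median over all 31 was 1.53 on the log2 scale. Of the 27, 3 genes, Ifi44 among them, passed the depositors' minimum of 50 counts in Positive only, so their direction was partly set by that filter, and 24 were called with 50 counts in all 6 libraries. Ly6e was the most abundant, at 503.3 ± 16.2 CPM in Input and 1938.5 ± 112.3 in Positive (SD, n = 3; log2 fold change 1.95). Slfn5 rose by 2.62, Shisa5 by 1.31 and Ifi44 by 2.90 ± 0.33 (edgeR adjusted p = 1.04e-04). Among those not called were Isg20 (-0.68), Epsti1 (-0.45) and Ifi27l1 (0.14). Epsti1 was called lower without Positive 1222 (-1.29, edgeR adjusted p = 0.017). It passed the depositors' minimum of 50 counts in Input only, so its direction was partly set by that filter.

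The interferon-induced GTPases, which attack the compartments of intracellular pathogens, were all called higher (14 of 14, median 2.36, range 1.69 to 2.72), where 26.1% of all genes were. One of them, Tgtp2, passed the minimum of 50 counts in Positive only, and the other 13 were called with 50 counts in all 6 libraries. Gbp2 rose by 2.59, Gbp3 by 2.51, Irgm2 by 2.04 and Iigp1 by 2.72 on the log2 scale. Of 10 with a promoter, 9 held the ISRE letters, as did 8 of 24 other effectors and 0 of 9 endothelial markers. Positive 1222 was the highest library for all 14 GTPases and for 24 of 31 other effectors.

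**Figure D4:**
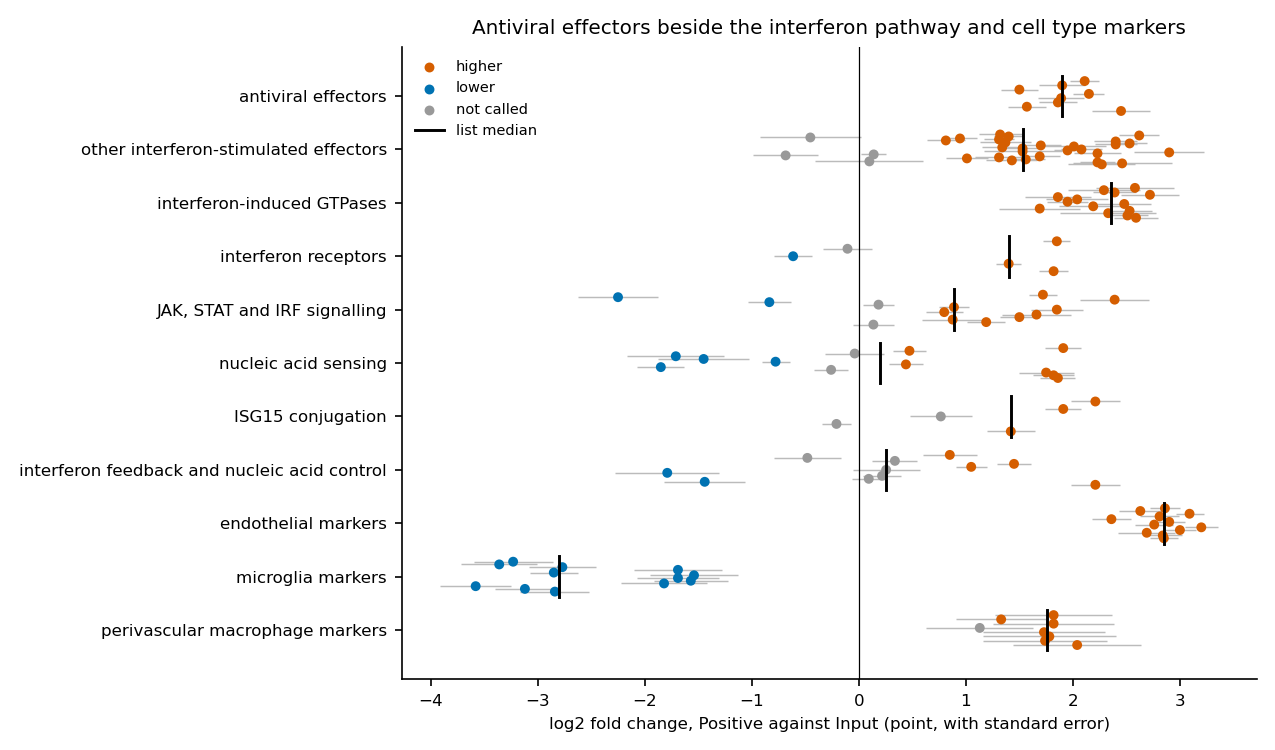
Log2 fold change of Positive against Input (x axis) for each gene of the lists (y axis); points are genes with their standard error, coloured by call, and black bars are list medians. The 8 antiviral effectors lie between 1.5 and 2.45 with a median of 1.90, and the endothelial markers between 2.36 and 3.20 with a median of 2.85.

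The neighbourhood of the members was also described. Of 24 other genes of the table within 100 kb of a member, 8 rose, 6 fell and 10 were not called, shares near the 26.1% and 29.4% of all genes. Agrn, a basement membrane protein encoded 1935 bases from Isg15, rose from 175.3 to 903.5 CPM (log2 fold change 2.37 ± 0.13). Sigirr, 80430 bases from Ifitm3, rose from 10.5 to 80.6 CPM (log2 fold change 2.95 ± 0.17). Of 10 neighbours of Bst2, 5 fell and 3 rose.

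Among other genes with a mean CPM above the median of all genes, 5 were nearest to the members' mean profile over the 6 libraries. They were Ifnar1, 4930523C07Rik, 4931406P16Rik, Sav1 and Lamc1. Genes with a lower mean were not compared. Likeness was the root mean square difference of centred log2(CPM + 1) values, at 0.051 to 0.075 for these 5, against a median of 0.88 for the genes compared. The members themselves lay at 0.106 (Ifit3) to 0.405 (Ifit1) from their mean. The deposited table also gives annotation terms, of which 5 antiviral and interferon terms were counted over genes that are not members, beside 26.1% higher and 29.4% lower over all genes. For the defense response to virus, which 4 members carry, 11 of 33 others rose and 10 fell (median log2 fold change -0.0084). For the response to virus, carried by 6 members, 24 of 50 others rose and 7 fell (median 0.42). For the negative regulation of viral genome replication, carried by 4 members, 4 of 9 rose and 2 fell (median 0.098). Terms that name interferon stood higher, with 8 of 13 others up and 2 down for the cellular response to interferon-beta (median 1.69) and 3 of 3 up for the response to interferon-alpha (median 1.56). Several members carry more than 1 of these terms, so the terms are not separate sets.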

How the data were processed

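Total RNA of 6 libraries was sequenced with a directional library kit. The deposited table holds estimated counts per gene, which per the file headers are the raw values, and log2 normalised values made by the authors, which were used only as an alternative. Per the file headers, a gene entered the table if its raw value was at least 50, and within an upper limit, in every library of either fraction. Per the submitters' processing notes the build was mm10 and DESeq is the tool named; no source used here gives the aligner, the counter or the use of strand.

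The estimated counts were rounded and all 10989 genes were tested with edgeR 4.0.16 (R 4.3.3): filterByExpr with a minimum count of 10, which removed 0 genes, TMM scaling and a quasi-likelihood comparison of both fractions without covariates, with Benjamini-Hochberg adjustment over all genes (threshold 0.05). SE is the standard error of a log2 fold change, and the fit's prior count was 0.125. Levels are CPM on the TMM-adjusted library size. The biological coefficient of variation was 21.6%. The fit was tested on simulated data. Exon lengths are the union of a gene's exons in GENCODE vM21 (GRCm38, the assembly of mm10), and promoter sequences and starts are from RefSeq on GRCm38.p6. Differences within a replicate number and the likeness between profiles use log2(CPM + 1).

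The members and gene lists were chosen with earlier results of these data known. Of 128 pathway genes listed, 90 were matched, 2 of them by Entrez identifier (Ifit3b is I830012O16Rik in the table and Ifi27 is Ifi27l1); the others were not analysed here. Of 74 marker genes, 67 were matched. The rule for named genes took the members and their Ifit and Ifitm relatives, all genes of pathway lists with 6 or fewer matched genes, and, of longer lists, the 3 with the highest mean CPM, those called against the list's main direction and the one with the largest absolute log2 fold change. It also took the 5 nearest profiles and the 2 most abundant genes of each marker list; of the latter only Mrc1 is printed, and the lists are otherwise given as sums. Cmpk2, Agrn, Sigirr, the genes named for passing the 50-count minimum in 1 fraction only (Tgtp2 and Dhx58) and the remaining genes named to complete counts of 5 or fewer (such as Irf3 and Pias1) were chosen after their values were seen. Some genes of the lists enter the counts but are not reported here by name.

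Replicate numbers were taken to pair the libraries: deviations from the fraction mean correlated across genes at 0.45 (1222), 0.24 (1223) and 0.30 (1227) between Input and Positive of 1 number, against at most 0.021 between numbers. Deviations from a mean of 3 libraries sum to 0. Correlations above 0 within a number thus push those between numbers down, and the contrast is partly built in. The series text calls the replicates biological but no label ties a number to an animal. The p-values measure only how much these libraries vary, which may be technical. Alternatives were DESeq2 1.42.0, limma 3.58.1 on the deposited log2 values, other scalings and filters, a replicate block and leaving out libraries.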

Additional observations from a re-analysis of the deposited data

How the results depend on the processing

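All 8 members kept their direction and stayed past the threshold in each of 16 alternatives, with log2 fold changes from 1.33 to 1.60 for Bst2 and from 2.26 to 2.74 for Ifit1. The replicate block changed no member's call, with log2 fold changes of 1.49 (Bst2) to 2.45 (Ifit1), and moved no count of calls by over 1.5 times. Omitting scaling beyond library size moved the median of all genes from 0.029 to -0.128 and Rsad2's mean within-number difference from 2.07 to 1.92. Dropping the filter changed nothing, since it removed 0 genes.

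Over all genes 2870 were higher, and 1741 to 2755 when libraries were left out, lowest without both 1227 libraries. Those lower were 3227, and 2066 where at least 50 counts were required in all 6 libraries, which tests fewer genes. Pathway genes lower were 9, and 4 to 9 when libraries were left out, lowest without both 1227 libraries. That setting ended the calls of Ifngr1 (-0.53), Irf5 (-0.75), Tlr7 (-1.03), Tlr9 (-1.20), Ptpn6 (-1.40) and Rnaseh2c (0.89). Socs3 (-1.08) and Tlr7 (-1.64) lost theirs without both 1223 libraries, and Ifngr1 with limma (-0.53). Mrc1 (2.04) lost its call without Input 1227 (1.92), both 1222 libraries (1.02) or both 1223 libraries (2.33). The cause was not tested.

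Among the genes named, signs turned only where the gene was not called. With the 50-count filter the values were -0.0016 (Ifi27l1), -0.0025 (Jak1) and -0.047 (Pias1). Without scaling they were -0.015 (Ifi27l1), -0.023 (Jak1) and -0.065 (Pias1). With limma they were 0.0079 (Ifngr2) and 0.061 (Ticam1). When libraries were left out, values ran from -0.33 to 0.12 (Ifngr2), -0.032 to 0.25 (Jak1), -0.47 to 0.19 (Ticam1) and -0.21 to 0.56 (Trex1). Isg20 passed the threshold only without scaling (-0.84).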
